A study of Mus musculus with 37 samples.

Results

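The alpha-defensins described here are 8 mouse genes: Defa24, Defa17, Defa30, Defa22, Defa3, Defa38, Defa29 and Defa-ps6. They were taken by symbol from 3 tables of unique molecular identifier (UMI) counts, which together list 31533 genes. The choice was not blind: the members were selected on results from these counts, in particular the comparison of VIP with control for 72 h in sorted Lgr5-EGFP+ cells, in which Defa3 and Defa38 stood out. That comparison is therefore described below without a test. The other comparisons come from other cultures and were tested in fits across all genes. The tables hold 28, 24 and 22 symbols of the Defa family, so 20, 16 and 14 further symbols serve beside the members as relatives that were not chosen.

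Alpha-defensins, called cryptdins in the mouse, are short cationic peptides with conserved disulfide bridges that kill bacteria. In the small intestine they are made by Paneth cells at the crypt base, stored in granules and released into the crypt lumen. The mouse precursors are cut to the active form by the matrix metalloproteinase Mmp7. Paneth cells lie between the Lgr5+ stem cells and supply them with niche signals. Defa38 and Defa29 belong to the cryptdin-related sequences, whose secreted part differs from that of the classical cryptdins. Defa-ps6 is annotated as an unprocessed pseudogene.

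Jejunal organoids, which are epithelial cultures grown from crypts, were treated with vasoactive intestinal peptide (VIP), a neuropeptide of the enteric nervous system, at 100 nM. Whole organoids of C57BL/6 mice received medium alone (3 cultures) or VIP for 72 h (4 cultures), and mouse 4 has VIP only. Cells positive for EGFP expressed from the Lgr5 locus were sorted from organoids of Lgr5-EGFP-IRES-CreERT2 reporter mice after 72 h with VIP (4 cultures) or without it (4 cultures). In the irradiation experiment the same kind of cells was sorted from organoids of 4 reporter mice, each non-irradiated or exposed to 6 Gy and then kept with or without VIP for 48 h. Cultures of one mouse number within an experiment carry the same mouse identifier in their labels, and no identifier is shared between experiments. Total counts were 3722716 to 6330404 per culture for whole organoids, 575242 to 1104126 for the 72 h sort and 1075715 to 1876729 for the irradiation experiment. Levels are given as CPM, counts scaled to a common library size after TMM normalization. Since these are bulk samples, more Paneth-like cells and more defensin RNA per cell cannot be told apart.

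The sort was checked against its markers. Lgr5 itself was measured at 14.1 to 48.1 CPM in the sorted controls of the 72 h experiment and at 12.5 to 27.9 CPM in the non-irradiated controls, against 45.0 to 99.7 CPM in whole control organoids, so its transcript was not higher in the sorted cells. Lgr5 is only part of the list of 6 stem cell markers. Their sum stood at 4237 to 5839 CPM and 3293 to 4358 CPM in these sorted controls, against 2356 to 4557 CPM in whole control organoids. Most of that sum was Olfm4, at 3476 to 5017 CPM and 2436 to 3468 CPM in the sorted controls and 1312 to 3709 CPM in whole ones. By mean, Ascl2 was also higher in both sorts and Smoc2 only in the non-irradiated controls. Lgr5, Axin2 and Slc12a2 were higher in neither. The summed enterocyte markers stood at 167 to 1210 CPM in the controls of the 72 h sort, 328 to 677 CPM in the non-irradiated controls and 10819 to 11950 CPM in whole organoids. These tables were scaled separately and come from different mice, Lgr5-EGFP reporter mice for the sorts and C57BL/6 mice for whole organoids. The levels are therefore side by side and not tested. One library of whole organoids also stood apart. Mouse 3 with VIP was sequenced as a pair of libraries, and in library 2 Defa3 was at 103 CPM and Defa-ps6 at 4.09 CPM of the library total, where library 1 of that culture held 443 and 49.9 CPM. Defa24 was at 8184 and 8246 CPM in the same pair. The whole-organoid results are given with and without that library.

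The 8 genes lie on chromosome 8 (GRCm38), in copies so alike that their reads are hard to separate. Defa24 is at chr8:21734494-21735471 and Defa17 at chr8:21655780-21656735, both on the plus strand, and Defa3 at chr8:21287409-21288377 on the same strand. Defa30 (chr8:21134642-21135598), Defa22 (chr8:21162277-21163249) and the pseudogene Defa-ps6 (chr8:21225406-21226247) lie on the plus strand as well, and Defa38 (chr8:21095074-21096050) and Defa29 (chr8:21325887-21327020) on the minus strand. Each annotated transcript has 2 exons. The coding sequences of Defa3 and Defa17 are identical, and those of Defa24 and Defa30 match at 98.6%. The ends of the coding sequences, stop codon included, are shown because they encode most of the mature peptide and show how little separates the abundant members. They are from the GENCODE M21 transcripts, and capitals mark bases that differ from Defa24 at the same distance from the stop codon.
Defa24: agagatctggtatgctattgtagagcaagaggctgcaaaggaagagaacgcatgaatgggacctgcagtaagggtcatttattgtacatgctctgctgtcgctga
Defa30: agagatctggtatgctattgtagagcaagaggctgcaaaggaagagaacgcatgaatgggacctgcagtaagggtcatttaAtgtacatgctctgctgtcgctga
Defa17 and Defa3: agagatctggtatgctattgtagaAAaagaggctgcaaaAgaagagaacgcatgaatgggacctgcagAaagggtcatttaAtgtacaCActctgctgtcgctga
Defa22: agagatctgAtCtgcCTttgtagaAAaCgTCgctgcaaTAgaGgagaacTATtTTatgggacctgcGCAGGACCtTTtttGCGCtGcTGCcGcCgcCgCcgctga
Only 1 base separates Defa30 from Defa24 in this stretch and 7 separate Defa17 or Defa3 from it, whereas Defa22 differs at 39. The pair of cryptdin-related genes is compared within itself, with capitals in Defa29 marking the 2 bases that differ from Defa38.
Defa38: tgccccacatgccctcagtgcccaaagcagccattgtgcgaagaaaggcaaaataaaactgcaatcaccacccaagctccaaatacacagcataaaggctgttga
Defa29: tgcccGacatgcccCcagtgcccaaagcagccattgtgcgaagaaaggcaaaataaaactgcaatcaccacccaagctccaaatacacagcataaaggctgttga
Defa38 and Defa29 share 97.4% of their coding sequence and 62.4 to 65.3% of it with the 5 cryptdins. The fragments were read over 65 cycles, and of the 65-base stretches in its transcript Defa17 shares all but 8.41% with another gene and Defa3 all but 11.8%. The 28 stretches particular to Defa17 all end after the stop codon, as do 28 of the 41 particular to Defa3, so these genes can be separated mainly downstream of the stop codon, near the end that 3′ libraries favour. For the others the particular share was 36.9% for Defa22, which shares 224 stretches with Defa21, 51.4% for Defa-ps6, 62.0% for Defa38, 65% for Defa30, 75.0% for Defa29 and 85.1% for Defa24. Of the 131 stretches particular to Defa22 only 1 reaches past the stop codon. The annotated transcript of Defa38 has 0 bases after it. The shares of Defa22 and Defa38 therefore say little about separation at the favoured end. How reads that match several copies were counted is not given in the sources used here, and single-gene values are uncertain to that extent.

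Defa24 supplied most of the counts of the 8 members in every sample. These are counts of 3′ ends, into which transcript length does not enter. Its share of the counts of the 8 members was 60.5% ± 4.70 (SD, n = 3) in control organoids, 64.8% ± 1.90 (SD, n = 4) in control cells of the 72 h sort and 74.0% ± 2.03 (SD, n = 4) in non-irradiated control cells. Defa17 held 16.8%, 27.4% and 17.6% on average, and Defa30 17.0%, 5.72% and 7.11%. The remaining 5 members together stayed below Defa30 in whole organoids and in both control sorts. Of these, Defa38 held 2.77% in control organoids but 0.391% and 0.285% in the sorted controls.

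**Figure D1:**
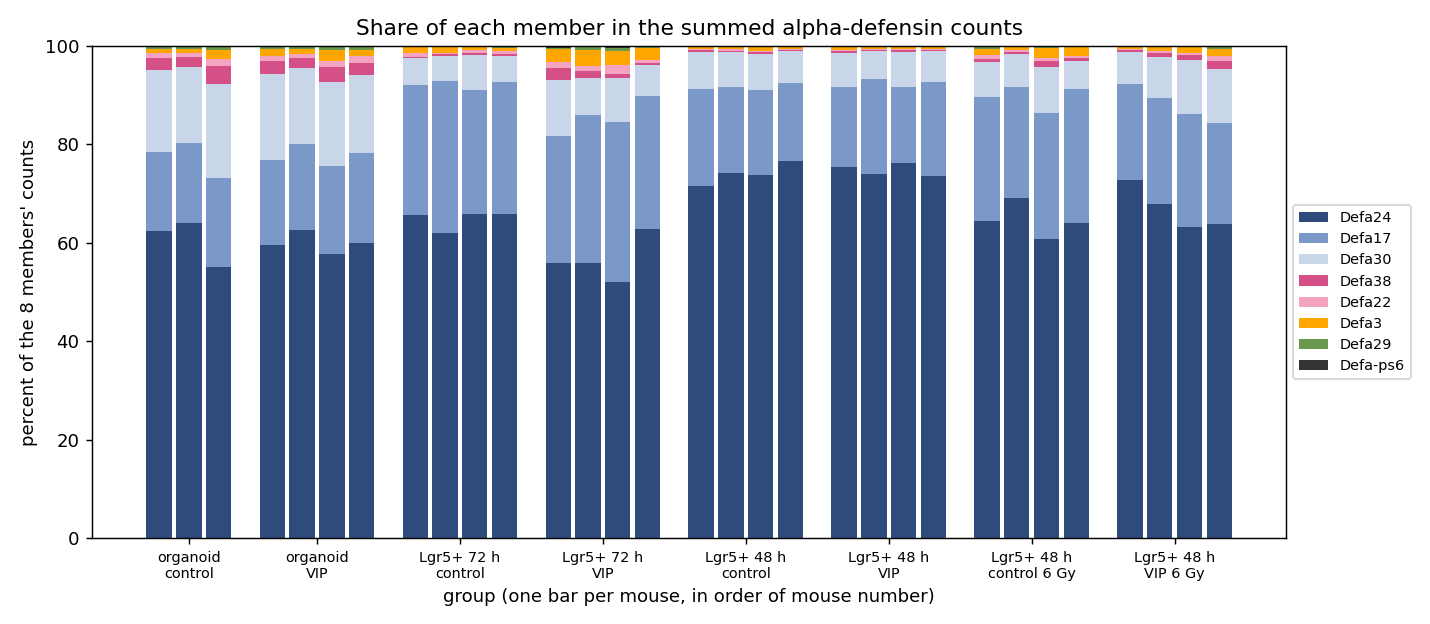
Share of each member in the counts of the 8 members, in percent, with one bar per culture in order of mouse number and the groups along the horizontal axis; Lgr5+ stands for sorted Lgr5-EGFP+ cells. Defa24 fills 52.1 to 62.9% of the bar after 72 h of VIP in sorted cells, 62.0 to 65.8% in the controls beside them, and 71.6 to 76.6% in the non-irradiated controls of the irradiation experiment.

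The summed level of the members was of similar order in sorted cells and whole organoids. It stood at 9981 to 17674 CPM in control organoids, 3690 to 13035 CPM in controls of the 72 h sort and 7800 to 11561 CPM in non-irradiated controls. By mean, the groups ran from VIP-treated cells of the 72 h sort at 6619 CPM through VIP-treated non-irradiated cells (7028 CPM), controls of the 72 h sort (8238 CPM), non-irradiated controls (9327 CPM), VIP-treated irradiated cells (12182 CPM), control organoids (12743 CPM) and VIP-treated organoids (13878 CPM) to irradiated controls at 17527 CPM. In each neighbouring pair of this order the samples overlapped. Values of different experiments in this order are not scaled to each other.

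Irradiation was followed by higher levels of the alpha-defensins in untreated Lgr5-EGFP+ cells. This comparison asks what 6 Gy did to sorted cells without VIP. All 8 members passed the filter on low counts, but Defa-ps6 did so only through the irradiated controls, where it is high, and is therefore kept out of the count. Each of the other 7 rose (edgeR quasi-likelihood test with the mouse as a block, Benjamini-Hochberg adjusted p of 0.05 or less), where 4.46% of the 9976 genes tested were called in either direction.

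Defa24, the most abundant cryptdin here, measured 8279, 6742, 6526 and 5972 CPM in non-irradiated controls of mice 1 to 4 and 10114, 7865, 13210 and 13637 CPM in irradiated controls. It was higher after irradiation in each mouse, by least in mouse 2, although the highest control and the lowest irradiated sample overlapped. The log2 fold change was 0.70 (SE 0.12, edgeR adjusted p = 0.00061). Defa3, whose coding sequence equals that of Defa17 (printed above), measured 63.1, 44.6, 64.5 and 36.2 CPM without irradiation and 204, 78.1, 432 and 395 CPM after it. The groups did not overlap, and the log2 fold change was 2.26 (SE 0.26, edgeR adjusted p = 9.8e-06). Defa17 rose from 1235 to 2282 CPM without irradiation to 2563 to 5790 CPM after it, again without overlap, with a log2 fold change of 1.40 (SE 0.18).

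Defa38 and Defa22 had fitted changes near that of Defa3, and Defa29 and Defa30 smaller ones. Defa38 measured 31.6, 22.3, 33.4 and 19.1 CPM in non-irradiated controls and 85.4, 65.6, 299 and 145 CPM in irradiated controls, a log2 fold change of 2.35 (SE 0.34, edgeR adjusted p = 9.5e-05). No irradiated sample fell to the level of a non-irradiated one. Defa29 rose in 3 of 4 mice, from 5.92 to 16.7 CPM to 14.1 to 82.5 CPM (log2 fold change 1.78, SE 0.49, edgeR adjusted p = 0.035), and in mouse 2 it was 14.9 CPM before and 14.1 CPM after. Defa22 went from 18.1 to 21 CPM to 28.2 to 124 CPM, with a log2 fold change of 2.16 (SE 0.37). Defa30 had a smaller change of 0.87 (SE 0.18, edgeR adjusted p = 0.0030), from 509 to 865 CPM to 755 to 2026 CPM.

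Defa-ps6, the pseudogene, stood at 2.48, 4.33, 9.06 and 3.29 CPM in non-irradiated controls and at 7.60, 11.9, 30.5 and 9.19 CPM in irradiated controls of mice 1 to 4, that is at 4 to 32 UMIs per sample. It was higher in each mouse, with a fitted log2 fold change of 1.58 (SE 0.37). Because the sum of the members is carried by Defa24, its difference was smaller than that of most parts, 0.88 ± 0.58 (SD of the mouse differences, n = 4) on the log2 scale and higher in 4 of 4 mice. Without Defa24 the sum of the other 7 differed by 1.32 ± 0.75 (SD, n = 4).

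Among the Defa symbols that were not chosen, 5 were tested and 5 rose, Defa21, Defa26, Defa34, Defa39 and Defa41, with log2 fold changes of 1.03 to 2.14 (these 5 are named after their values were seen). Paneth cell products other than defensins moved the same way: 6 of 8 tested rose and none fell. They included lysozyme Lyz1 (log2 fold change 0.93, SE 0.16), the cryptdin-processing protease Mmp7 (0.88, SE 0.14), the ribonuclease Ang4 (1.32, SE 0.18), the lectin Itln1 (1.03, SE 0.14), the phospholipase Pla2g2a (0.97, SE 0.16) and the colipase Clps (0.74, SE 0.16). The pentraxin Mptx2 was too low to be tested and was higher by 1.16 ± 0.58 (SD of the mouse differences, n = 4). Of 9 Paneth cell regulators tested none was called, among them the transcription factors Sox9 at 0.09 (SE 0.07) and Atoh1 at -0.34 (SE 0.19).

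Markers of other cell types moved in the same samples. The summed goblet cell markers stood at 5346 to 8219 CPM without irradiation and 7104 to 10123 CPM after it, with 5 of 7 tested higher, and the enteroendocrine markers at 2396 to 3048 and 3503 to 6699 CPM, with 3 of 6 higher. Most of the goblet counts were of Spink4, 27629 of 42292 without irradiation and 34057 of 51826 after it. Enterocyte markers went from 328 to 677 CPM to 649 to 2028 CPM, with 3 of 6 higher, and none of 3 tuft cell markers was called. The summed stem cell markers went the other way, from 3293 to 4358 CPM to 2398 to 2795 CPM without overlap, with Olfm4 and Smoc2 lower among 6. Most of that sum was Olfm4, 19270 of 24724 counts without irradiation and 10579 of 14888 after it. Of the 6 markers, 3 had positive fold changes. Retnlb of the goblet list was not in this table, and no other listed marker was at 0 throughout. The part of these shifts in the defensin result was not tested. Without mouse 3 the calls of Defa30 and Defa29 were lost (5 of 7 left), with edgeR adjusted p = 0.135 for Defa30. The call of Defa29 was also lost without mouse 1 (edgeR adjusted p = 0.120) and in DESeq2 (adjusted p = 0.204).

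**Figure D2:**
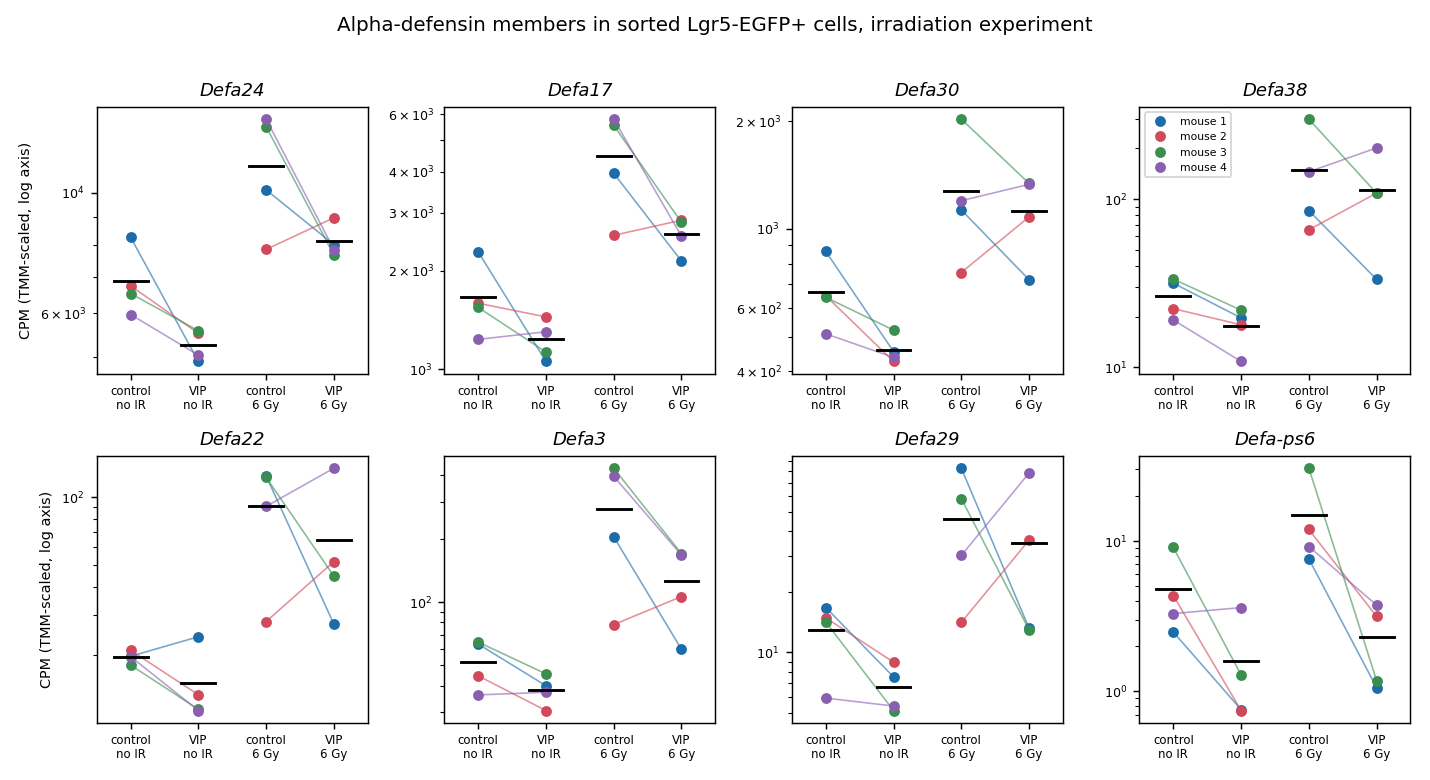
CPM on a log axis for each member in the 4 groups of the irradiation experiment; points are cultures coloured by mouse, lines join control and VIP cultures of a mouse at the same irradiation, and black bars are group means. Irradiated controls of Defa3 (78.1 to 432 CPM) and Defa38 (65.6 to 299 CPM) lie above all non-irradiated controls, and Defa-ps6 is lower with VIP in each irradiated mouse.

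With VIP present, irradiation was also followed by higher alpha-defensins. Of the 7 members other than Defa-ps6, 7 rose in VIP-treated cells after 6 Gy, where 7.78% of all genes tested were called. Defa24 measured 4897, 5517, 5575 and 5030 CPM without irradiation and 8024, 8990, 7679 and 7860 CPM after it in mice 1 to 4, a log2 fold change of 0.63 (SE 0.12, edgeR adjusted p = 0.0011). The groups did not overlap, and the mice were close to each other. Defa38 had the largest fitted change of the 8 in this comparison, 2.68 (SE 0.39, edgeR adjusted p = 4.3e-05), from 19.6, 17.9, 21.8 and 10.8 CPM to 33.2, 109, 108 and 201 CPM. Its 4 mice differed widely, from a log2 difference of 0.72 in mouse 1 to 4.07 in mouse 4.

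Defa29 (log2 fold change 2.35, SE 0.59), Defa22 (2.08, SE 0.41), Defa3 (1.70, SE 0.30), Defa30 (1.28, SE 0.18) and Defa17 (1.07, SE 0.18) were higher in 4 of 4 mice. The calls of Defa29 and Defa22 were lost without mouse 4, with edgeR adjusted p = 0.180 and 0.0744. Defa-ps6 had a log2 fold change of 0.44 (SE 0.64, edgeR adjusted p = 0.765) at 1 to 7 UMIs per sample. The summed members were higher by 0.79 ± 0.05 (SD of the mouse differences, n = 4), and by 1.17 ± 0.21 without Defa24. Of the 5 unchosen Defa symbols tested 2 rose, Defa21 and Defa39, and all 5 had positive fold changes. Paneth cell products rose in 7 of 8 cases, with Habp2, a hyaluronan-binding protease, added to the 6 above, and among 9 regulators only Ctnnb1, the Wnt effector beta-catenin, rose (0.66, SE 0.12). All 6 enteroendocrine markers rose in the same contrast, their sum going from 1532 to 4158 CPM to 4782 to 8730 CPM. Of 7 goblet cell markers 7 had positive fold changes and 3 rose (Muc2, Tff3 and Spink4), their sum going from 4755 to 5355 CPM to 6526 to 8315 CPM. All 6 enterocyte markers tested had positive fold changes, with 0 called, and Olfm4 and Smoc2 fell. The part of these markers was not tested.

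VIP without irradiation was accompanied by lower levels, none of which passed the test. Of the 8 members 0 were called by edgeR, and 0 by DESeq2, where 0.742% of 9976 genes were called by edgeR, and 4 members (Defa24, Defa30, Defa17 and Defa-ps6) had an unadjusted p under 0.05 in edgeR, as did 1237 of the 9976 genes. All 8 fold changes were negative, with a median of -0.52 on the log2 scale against -0.0033 over all genes tested. Defa24 went from the control values given above to 4897, 5517, 5575 and 5030 CPM with VIP and was lower in 4 of 4 mice (log2 fold change -0.39, SE 0.12, edgeR adjusted p = 0.131). Defa30, Defa38 and Defa29 were lower in 4 of 4 mice as well, with log2 fold changes of -0.55 (SE 0.18), -0.67 (SE 0.48) and -0.99 (SE 0.70). The sum of the members differed by -0.40 ± 0.29 (SD, n = 4) and was lower in each mouse. When only the 8 samples of these groups were fitted, Defa24 (edgeR adjusted p = 0.0055) and Defa30 (0.0017) were called lower. Calls over all genes were also more frequent in that fit, 184 of 9147 against 74 of 9976. The stem cell markers were at 5149 to 5650 CPM with VIP and 3293 to 4358 CPM without, with Olfm4 called higher. Goblet cell markers had 6 of 7 negative fold changes (5346 to 8219 CPM without VIP and 4755 to 5355 CPM with it, 0 called), enterocyte markers 5 of 6 (328 to 677 and 172 to 385 CPM, Fabp1 called lower) and Paneth cell products 7 of 8 (2824 to 4091 and 2551 to 2862 CPM, 0 called). The part of these markers was not tested.

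In irradiated cells none of the 7 members other than Defa-ps6 was called with VIP (0 by edgeR and 0 by DESeq2), where 0.221% of the genes tested were called by edgeR. Defa24, Defa17 and Defa3 had an unadjusted p under 0.05, as did 574 of the 9976 genes. The pseudogene Defa-ps6 measured 7.60, 11.9, 30.5 and 9.19 CPM in irradiated controls and 1.06, 3.15, 1.18 and 3.74 CPM with VIP, with 2 to 7 UMIs per VIP-treated sample. The fitted log2 fold change was -2.62 (SE 0.43), given as a description: the gene passed the filter only through the irradiated controls, where it is high, so that a lower level with VIP was favoured by its selection. Defa3 measured 204, 78.1, 432 and 395 CPM in irradiated controls and 59.6, 106, 169 and 167 CPM with VIP, a log2 fold change of -1.05 (SE 0.23, edgeR adjusted p = 0.0566). It was lower in 3 of 4 mice and higher in mouse 2. Mouse 2 was also the exception for Defa24 (log2 fold change -0.45, SE 0.12), for Defa17 (-0.77, SE 0.18, edgeR adjusted p = 0.0723) and for the sum (-0.48 ± 0.49, SD, n = 4), and its irradiated control had the lowest Defa24, Defa3 and Lyz1 of its group. Without mouse 2, Defa24, Defa3 and Defa17 passed the threshold, in a fit that called 35 of 10052 genes.

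The other members had log2 fold changes from -0.14 for Defa30 to -0.52 for Defa22 and split 2 to 2 by mouse. Paneth cell products had 8 negative fold changes of 8, of which 0 were called, with Itln1 at -0.62 (edgeR adjusted p = 0.0608) and Ang4 at -0.74 (edgeR adjusted p = 0.0712). Fcgbp, a goblet cell product, and Fabp1, an enterocyte protein, were lower and Olfm4 higher in this contrast, and the stem cell markers stood at 2992 to 3608 CPM with VIP and 2398 to 2795 CPM without. The part of these markers was not tested.

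The effect of VIP was not shown to differ between irradiated and non-irradiated cells. In the interaction of VIP and irradiation, edgeR and DESeq2 each called 0 genes (0% of 9976), although 634 had an unadjusted p under 0.05 in edgeR. No member did: the estimates ran from -1.14 (SE 0.78) for Defa-ps6 to 0.57 (SE 0.82) for Defa29, and the sum gave -0.08 ± 0.58 (SD, n = 4). The estimate of Defa-ps6 is a description, as the gene passed the filter only through the irradiated controls, where it is high. A negative value was favoured by that selection.

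**Figure D3:**
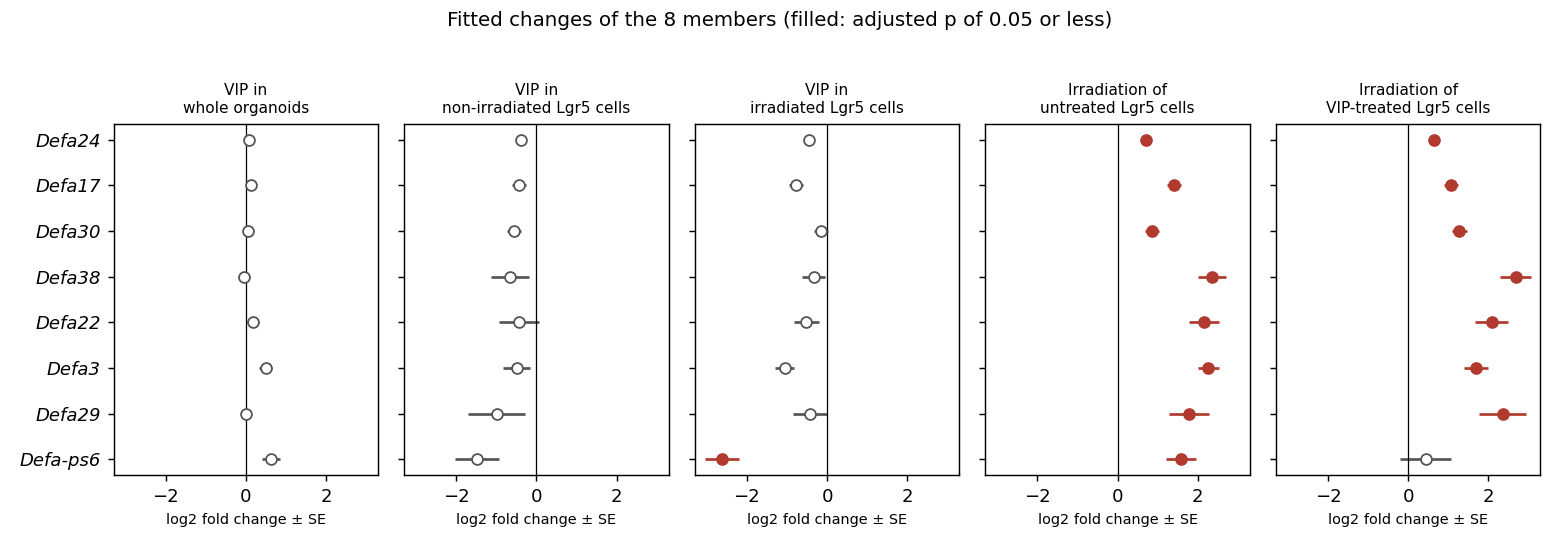
Fitted log2 fold change with its standard error for each member in the 5 comparisons tested with edgeR; filled points had an adjusted p of 0.05 or less, which for Defa-ps6 in the irradiated controls' comparisons is no test, since it was selected through that group. Points after irradiation lie to the right of 0, between 0.44 and 2.68, those for VIP in sorted cells lie to the left, and those for whole organoids lie between -0.06 and 0.62.

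Whole organoids treated with VIP for 72 h had alpha-defensin levels that overlapped those of the controls. None of 8 members was called (0 by edgeR and 0 by DESeq2, with Defa3 and Defa-ps6 among the 2090 genes at an unadjusted p under 0.05), where 4.82% of 12727 genes were. Defa24 measured 6591, 6390.5 and 9752 CPM in controls of mice 1 to 3 and 8268, 6854, 8344 and 9759 CPM in VIP-treated organoids of mice 1 to 4 (log2 fold change 0.07, SE 0.10, edgeR adjusted p = 0.818). Mouse 3 was the highest control and the only one of the 3 pairs in which VIP was lower. Defa3 measured 94.4, 76.7 and 332 CPM in controls and 190.0, 114, 316 and 216 CPM with VIP (log2 fold change 0.49, SE 0.15, edgeR adjusted p = 0.102). Defa-ps6 measured 4.73, 3.57 and 29.4 CPM in controls and 11.5, 6.76, 32.7 and 14.9 CPM with VIP and was higher in 3 of 3 pairs (0.62, SE 0.22, edgeR adjusted p = 0.163). The remaining members lay between -0.06 and 0.18, and the sum differed by 0.08 ± 0.35 (SD, n = 3).

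The absence of calls in whole organoids depended on mouse 3 and on the filter on low counts. With all genes with any count fitted and mouse 3 kept, members were called as well, in a fit that called 979 of 27407 genes. Without the second VIP library of mouse 3, which was described above, Defa3 (log2 fold change 0.68, edgeR adjusted p = 0.0010) and Defa-ps6 (0.96, edgeR adjusted p = 0.0032) were called higher, and without mouse 3 altogether Defa3 (0.80), Defa-ps6 (1.14), Defa22 (0.46), Defa17 (0.36) and Defa30 (0.31) were. Calls over all genes rose as well, from 614 of 12727 to 1261 of 12684 without that library and to 1668 of 12993 without mouse 3. The control of mouse 3 is a single library in which the Paneth cell products sum to 9482 CPM, against 3680 and 4097 CPM in the other two controls. Of the 10 Paneth cell products 0 were called, with Mmp7 at 0.50 (SE 0.13, edgeR adjusted p = 0.0523) and Lyz1 at 0.20 (SE 0.12). Among regulators Atoh1, which drives secretory fate, was the single gene called (0.50, SE 0.12, edgeR adjusted p = 0.032), and 6 of 7 goblet cell markers were higher in the same organoids. Of 20 other Defa symbols 9 were tested, 0 were called, and their fold changes ran from -0.40 to 0.27.

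In cells sorted after 72 h of VIP, Defa3 was higher in every mouse and Defa38 in most, while Defa24 was lower. Defa3 measured 111, 83.5, 95.2 and 21.3 CPM in controls of mice 1 to 4 and 247, 199, 214 and 72.5 CPM with VIP, so it was higher in 4 of 4 mice, by a fitted 1.27 (SE 0.16) on the log2 scale. Defa38 measured 35.3, 26.7, 40.6 and 18.0 CPM in controls and 244, 87.9, 66.9 and 13.9 CPM with VIP and was higher in 3 of 4, with the largest difference in mouse 1 (fitted 1.61, SE 0.29). Defa24 measured 6021, 4370, 8581 and 2427 CPM in controls and 5441, 3499, 3920 and 1860 CPM with VIP, lower in 4 of 4 mice (-0.49, SE 0.16). As stated above, these values helped to choose the members and are a description. Over all genes of that fit, 0.0885% of 6778 genes passed the threshold, from which nothing is read for the members.

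Defa29 and Defa-ps6 did not pass the filter on low counts in the 72 h sort. Defa29 was at 3.21, 5.80, 0 and 8.20 CPM in controls and at 33.9, 43.1, 40.8 and 6.17 CPM with VIP, and the control at 0 held 0 UMIs of 608251 counts, which allows a level of up to 5.29 CPM (3 counts, counting error only). Defa22 was higher in 3 of 4 mice (0.81, SE 0.22), Defa30 in 2 of 4 (0.28, SE 0.17) and Defa17 in 1 of 4 (-0.22, SE 0.14). The sum of the members was lower in 3 of 4 mice, by 0.30 on average (-0.30 ± 0.37, SD, n = 4). Relative to Defa24 within the same library, after a prior count of 2 was added, Defa3 was higher with VIP in 4 of 4 mice (log2 ratio difference 1.78 ± 0.45, SD, n = 4). So was each of the other 6 members, from 0.27 for Defa17 to 2.66 for Defa29. For Defa29 and Defa-ps6 the direction in mouse 4 rests on that prior count. Their counts there were 5 and 4 UMIs in control, beside 1480 of Defa24. With VIP they were 4 and 3 UMIs beside 1206, so both plain ratios were slightly lower. In the non-irradiated cells of the irradiation experiment, which had VIP for 48 h, the same difference for Defa3 was -0.02 ± 0.27 (SD, n = 4) and in irradiated cells -0.54 ± 0.68.

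The value of Defa3 in the 72 h sort changed sign when its counts were added to those of Defa17 before the fit. In this alternative, chosen after the data were seen, the pair gave -0.14 (SE 0.14), since Defa17 supplies most of its counts. Defa22 added to Defa21 gave 0.93 (SE 0.19). In the irradiation experiment the same sums gave 1.44 (SE 0.19) for Defa3 plus Defa17 and 2.07 (SE 0.37) for Defa22 plus Defa21 in untreated cells after 6 Gy, both called by edgeR, so for these pairs the direction after irradiation was the same with and without the separation of the copies. Lyz1 (-0.10, SE 0.14), Mmp7 (0.01, SE 0.16) and Itln1 (-0.29, SE 0.13) are given without a test for the 72 h sort, where the stem cell markers were at 5416 to 6705 CPM with VIP and 4237 to 5839 CPM without. The goblet cell markers stood at 2957 to 5567 CPM with VIP and 3884 to 7844 CPM without.

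**Figure D4:**
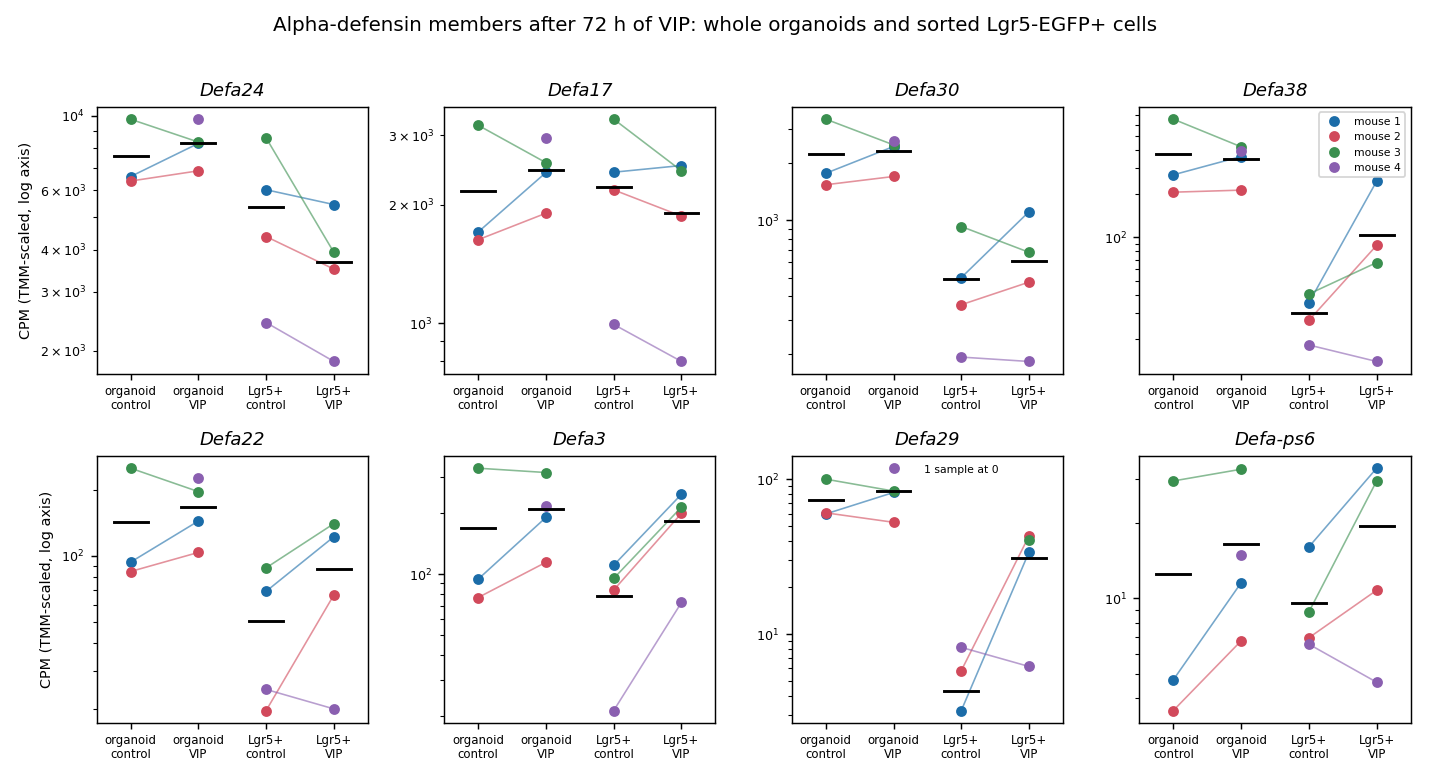
CPM on a log axis for each member after 72 h with or without VIP, in whole organoids and in sorted Lgr5-EGFP+ cells; points are cultures coloured by mouse number, lines join cultures of a mouse within an experiment (mouse numbers denote different animals in the experiments), and black bars are group means. Defa3 is higher with VIP in each of the 4 sorted pairs, from 21.3 to 111 CPM to 72.5 to 247 CPM, while Defa24 is lower in each.

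Genes outside the family whose levels followed the summed members most closely over the 16 samples of the irradiation experiment were sought among 9963 genes, by the Pearson correlation of log2 CPM after each mouse's mean was subtracted. The 5 closest were Itln1 (r = 0.995), Mmp7 (0.983), the goblet cell peptide Spink4 (0.981), Lyz1 (0.964) and Clps (0.957). In the 8 samples of the 72 h sort the same genes had r of 0.797, 0.405, 0.928, 0.729 and 0.171. Within each of these sets the points share libraries, depth and normalization. The coefficients are a description of likeness in level and carry no test.

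Promoters were read for the members listed in the RefSeq-based table (GRCm38.p6), Defa38, Defa30 and Defa22, as the 250 bases before the annotated start. They are shown because Paneth cell genes are known targets of Wnt signalling through TCF factors. The core CTTTGAT was searched on both strands, with capitals marking it below, where it reads ATCAAAG on the strand of the gene. It occurred in 3.21% of 32851 promoter windows, once in the window of Defa30 and at a pair of places in that of Defa22.
Defa30, chr8:21134400-21134649, plus strand: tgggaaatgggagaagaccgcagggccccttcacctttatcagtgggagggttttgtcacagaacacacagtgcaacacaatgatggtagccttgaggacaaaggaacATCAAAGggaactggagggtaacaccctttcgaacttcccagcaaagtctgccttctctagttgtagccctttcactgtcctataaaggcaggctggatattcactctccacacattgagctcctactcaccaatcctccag
Defa22, chr8:21162027-21162276, plus strand: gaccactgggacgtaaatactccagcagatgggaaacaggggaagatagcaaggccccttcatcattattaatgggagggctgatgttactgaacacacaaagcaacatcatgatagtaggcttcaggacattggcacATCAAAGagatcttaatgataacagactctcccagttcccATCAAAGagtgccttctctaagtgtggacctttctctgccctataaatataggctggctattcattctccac
The window of Defa38 did not hold these letters. The letters TATAAA were found in each of the 3 windows and in 12.4% of all windows. These matches are a description of the sequence.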

How the data were processed

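Counts of UMIs per gene were deposited by the authors as raw values, made from 3′ poly(A) libraries with the Drop-seq pipeline on GRCm38 and GENCODE M25, without normalization. The treatment of reads matching several genes is not given in the sources used here. Technical replicate libraries of whole organoids were summed. edgeR 4.0.16 in R 4.3.3 was used (TMM, filterByExpr by group, quasi-likelihood test, mouse as block, prior count 2), with p-values adjusted by Benjamini-Hochberg over all genes tested and a threshold of 0.05. The 16 libraries of the irradiation experiment shared 1 fit. Sums and ratios were compared within mice without a test. DESeq2 1.42.0, other scalings and filters, no block, 2-group fits and leaving out each mouse were alternatives. The fits were also run on simulated counts, with the same spread set for every gene. Changes were set only in genes above a minimum expected count. Members at few UMIs or with a wide spread between mice are not covered by that run.

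Pairing followed the mouse identifier in the labels: same-mouse deviations correlated at 0.268 to 0.634 in whole organoids, 0.0292 to 0.212 in the 72 h sort and -0.0707 to 0.158 in the irradiation experiment. Deviations of different mice correlated at -0.545 to 0.334, -0.144 to 0.15 and -0.204 to 0.205 in the same order. The ranges overlapped in each experiment, and in the irradiation experiment the same-mouse range lay within the other. Members and lists were chosen with earlier results of these data known. Named were the 8 members, called Paneth cell products and regulators, Lyz1, Mmp7, Mptx2, Ang4, Sox9, Atoh1 and the 5 genes closest in pattern; other markers were named after their values were seen. Sequences and positions are from GENCODE M21 and RefSeq GRCm38.p6 (promoters for 3 of 8 members), read with Biopython 1.88.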

Additional observations from a re-analysis of the deposited data

Results flagged for a closer look

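In non-irradiated cells with VIP, Defa22 in mouse 1 stood at 24.2 CPM, apart from the other mice, of which the nearest was at 13.4 CPM. The gap was 0.844 of the range of the group, above Dixon's critical value for 4 samples. 63 groups of 4 were examined, and chance alone flags about 1 in 20 groups.

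Defa-ps6 was higher with VIP in 3 of 3 pairs of whole organoids (mean log2 difference 0.74) and lower in 4 of 4 pairs of irradiated Lgr5-EGFP+ cells (-2.06). Its ratio to Defa24, taken after a prior count of 2 was added, moved by 0.68 in whole organoids, 1.13 in the 72 h sort and -1.63 in irradiated cells. Every pair of each experiment was then on one side. For mouse 4 of the 72 h sort that side rests on the prior count. Defa-ps6 held 4 UMIs there beside 1480 of Defa24 in control and 3 beside 1206 with VIP. The ratio of Defa17 to Defa24 moved by 0.27 in the 72 h sort and -0.30 in irradiated cells. These came from 112 pairs of contrasts compared in direction, and the differences were not tested. The experiments used different mice, VIP for 72 h or 48 h, and separate normalization, and Defa-ps6 held 2 to 7 UMIs per VIP-treated irradiated sample. Defa-ps6 passed the filter of the irradiation experiment only through the irradiated controls, where it is high, so its lower level with VIP was favoured by selection, and the 72 h sort was used to choose the members.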

How the results depend on the processing

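Of the alternatives for single members, 494 were rated unchanged, 26 gained a call, 11 lost one and 22 changed sign. Unchanged meant the same direction and side of the threshold. In the untested 72 h sort it meant a value within the SD of the mouse differences, so a small change of sign could be rated unchanged there. In whole organoids Defa29 gave -0.0034 with DESeq2, -0.0012 with RLE size factors and -0.018 without library 2 of VIP-treated mouse 3, and Defa38 gave 0.16 with the first technical library only and 0.028 without library 2. Leaving out each mouse in turn gave log2 fold changes in whole organoids of -0.046 to 0.36 for Defa17, -0.042 to 0.46 for Defa22, -0.062 to 0.21 for Defa24, -0.23 to 0.15 for Defa29, -0.15 to 0.31 for Defa30 and -0.30 to 0.24 for Defa38. For VIP in irradiated cells the ranges were -1.30 to 0.36 for Defa29, -0.34 to 0.040 for Defa30 and -0.73 to 0.13 for Defa38. In the interaction they were -0.78 to 0.73 for Defa22, -0.24 to 0.11 for Defa24, -0.22 to 1.29 for Defa29 and -0.15 to 0.81 for Defa38. Defa3 summed with Defa17, an alternative chosen after the data were seen, gave -0.14 in the 72 h sort, since Defa17 holds most of the counts. The cause of the other changes was not tested.

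Members past the threshold, against 0, 0, 1 and 0 for VIP in whole organoids, non-irradiated cells, irradiated cells and the interaction, numbered 2, 3, 5 and 1 when all genes with any count were fitted. Fitting only the 8 samples of the 2 groups gave 2 in non-irradiated and 3 in irradiated cells, and the first technical library only, or library 2 left out, gave 2 in whole organoids. Leaving out each mouse gave 5 to 8 after irradiation without VIP, 0 to 4 for VIP in irradiated cells and 0 to 5 in whole organoids. These counts include Defa-ps6, which in the irradiation experiment passed the filter only through the irradiated controls. Without it the first 2 ranges were 5 to 7 and 0 to 3 of 7 members, and VIP in irradiated cells had 0 of 7, 4 with all genes with any count and 2 in the 2-group fit. The summed members without Defa24 were higher by 1.17 on the log2 scale after irradiation with VIP, against 0.79 with it.

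Without the replicate block the members past the threshold numbered 0 in whole organoids, 0 and 1 for VIP in non-irradiated and irradiated cells, 7 after irradiation with and 7 without VIP, and 0 in the interaction. The 1 for VIP in irradiated cells was Defa-ps6, for which a lower level was favoured by its selection. Of the other 7 members 0 were called there. Calls over all genes then fell from 614 to 99 in whole organoids, from 74 to 34 and from 22 to 12 for VIP in non-irradiated and irradiated cells, and moved from 445 to 322 and from 776 to 642 after irradiation without and with VIP.

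Calls over all genes with DESeq2 were 300 in whole organoids, 12 for VIP in irradiated cells, and 281 and 489 after irradiation without and with VIP. With all genes with any count they were 979 in whole organoids, 182 and 110 for VIP in non-irradiated and irradiated cells, and 34 in the interaction. The 2-group fits called 184 and 52 for VIP in non-irradiated and irradiated cells, and whole organoids without library 2 called 1261. Leaving out each mouse gave 363 to 1668 in whole organoids, 32 to 42 and 5 to 35 for VIP, 176 to 643 and 426 to 691 after irradiation, and 0 to 1 in the interaction. Depth limits Defa-ps6 and Defa29 most, both at single UMI counts in some samples.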
